A study of Homo sapiens with 12 samples.

Results

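The guanylate-binding proteins GBP1 to GBP5 were followed at the mRNA level in PANC-1 cells, an established human pancreatic ductal adenocarcinoma line. Of the 5 genes listed, 4 had a named feature on the array, with 1 each, among 34487 features in all, of which 14675 carried a gene name. No feature used here was annotated to GBP1, so that GBP1 was not analysed. The features were those of the RefSeq mRNAs NM_004120 (GBP2), NM_018284 (GBP3), NM_052941 (GBP4) and NM_052942 (GBP5). Features without a gene name were not searched for further GBP transcripts. The genes were chosen by name as a family, with earlier results of these data known.

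PANC-1 cells were either co-cultured with tumor-associated macrophages (TAMs) for 4 days or grown alone, under normoxia or under hypoxia, and total RNA was hybridised to 12 single-colour (Cy3) arrays. The 4 groups of 3 arrays each were co-cultured cells under normoxia (NPM), cells alone under normoxia (NPC), co-cultured cells under hypoxia (HPM) and cells alone under hypoxia (HPC). No genetic change or drug was applied to the cancer cells in any group. The TAMs came from the human monocytic line THP-1, differentiated with a phorbol ester and then polarised with IL-4 and IL-13, and a porous transwell membrane kept them apart from the PANC-1 cells. The triplicates of a group were described by the submitters as independent experiments. The sources used here do not state the oxygen level of the hypoxic cultures.

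Guanylate-binding proteins are large GTPases of the dynamin superfamily and are among the genes most strongly induced by interferon-gamma. They gather on vacuoles and bacteria in the cytosol, where GBP1, with GBP2, GBP3 and GBP4, forms a coat that recruits the inflammatory caspase CASP4. GBP1, GBP2 and GBP5 end in a CaaX motif that receives a lipid by prenylation and anchors them to membranes, whereas GBP3 and GBP4 lack this anchor. Interferon-gamma acts through the receptor chains IFNGR1 and IFNGR2, the kinases JAK1 and JAK2, and gamma-activated sequences (GAS) are DNA elements through which it switches genes on. IRF1 binds a second element, the interferon-stimulated response element (ISRE).

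The family lies in a cluster on human chromosome 1. In the GRCh38.p14 annotation of RefSeq, GBP3 spans bases 89006680 to 89022866, GBP1 89052319 to 89065208, GBP2 89106132 to 89126114, GBP4 89181144 to 89198942 and GBP5 89256189 to 89272860. RefSeq promoter sequences, covering 250 bases before to 50 after the annotated start, were matched for 3 of the 5 genes, GBP1, GBP3 and GBP4. They are shown because the elements named above can be searched in them. Each of the 3 held the core of an ISRE, searched on both strands as GAAANNGAAA, which reads TTTCNNTTTC on the opposite strand. The 30 bases around each match are given from 5′ to 3′ along the gene, with the ISRE core in capitals, at chr1:89065316-89065345, chr1:89022845-89022874 and chr1:89198927-89198956, all on the minus strand.
GBP1: aacgaagtacTTTCAGTTTCatattactct
GBP3: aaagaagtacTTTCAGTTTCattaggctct
GBP4: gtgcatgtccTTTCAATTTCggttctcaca

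The GBP1 and GBP3 stretches were identical at 25 of 30 bases, and the GBP4 stretch matched each of them at 16 of 30. The stretches were aligned on the searched core, so that these counts include its fixed letters, which are identical by the search. The ISRE core lay at bases -127 to -118 from the annotated start in GBP1, at 3 to 12 in GBP3 and at -4 to 6 in GBP4. Over all 35116 RefSeq promoters of this length, 1255 (3.57%) held the ISRE core. A GAS, searched as TTCNNNGAA, which reads the same on both strands, was found in GBP3 only among these 3, at bases -15 to -7, and in 2689 (7.66%) of all promoters. In the tests below, the GBP3 feature passed for co-culture on average, as did that of GBP2, and for oxygen in co-cultured cells. Its log2 difference between hypoxia and normoxia was -1.30 in co-cultured cells and -1.07 in cells alone, where it did not pass. The test of a change of this difference between the cultures did not pass. A link between the motifs and these values was not tested. The GBP3 promoter is printed in full from chr1:89022817-89023116 on the minus strand, with the GAS as the first run of capitals and the ISRE core as the second.
GBP3 promoter: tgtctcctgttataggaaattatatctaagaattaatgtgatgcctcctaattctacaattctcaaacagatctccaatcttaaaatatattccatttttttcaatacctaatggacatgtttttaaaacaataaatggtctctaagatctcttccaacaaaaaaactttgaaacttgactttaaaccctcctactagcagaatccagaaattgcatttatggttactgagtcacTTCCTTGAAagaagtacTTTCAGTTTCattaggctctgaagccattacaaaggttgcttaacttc

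**Figure D1:**
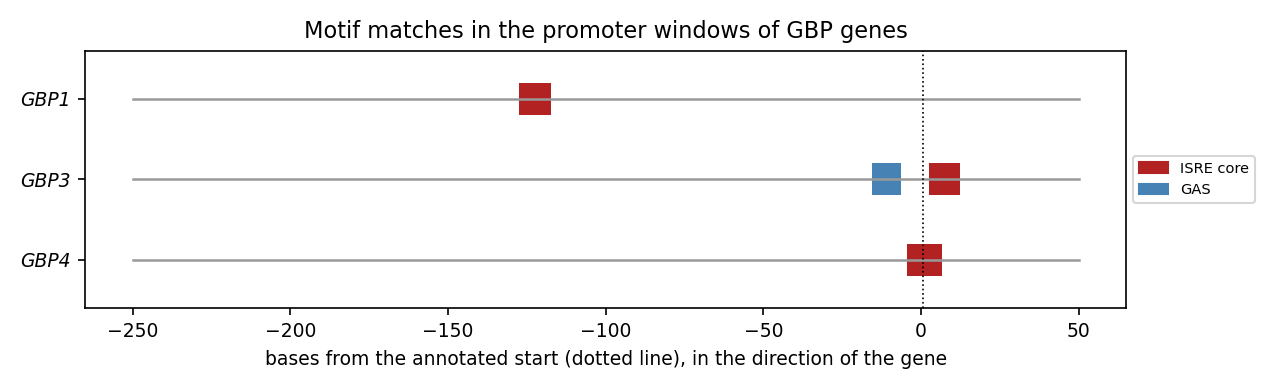
Position of the ISRE core (red) and the GAS (blue) in the promoter windows of GBP1, GBP3 and GBP4. The x axis is the distance in bases from the annotated start, 250 bases before to 50 after it. The GBP3 and GBP4 matches sit at the start, and that of GBP1 lies more than 100 bases before it. The matches are letters in a sequence and were not tested for binding.

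Values are intensities on a linear scale, as deposited after quantile normalization and RMA, and all tests were made on their log2. Their medians over all features were close to each other, at log2 9.17 to 9.29 on the 12 arrays. The keratins KRT8, KRT18, KRT19 and KRT7 and the intermediate filament gene VIM were among the brightest 25% of features on every array, as 5 of the 7 PANC-1 markers measured. The summed intensity of the 7 was 90881 to 94479 in NPM and 99578 to 107184 in NPC arrays, and 79332 to 89244 in HPM and 94476 to 114078 in HPC arrays, lower with co-culture without overlap. In the co-culture effect averaged over both oxygen levels, 1 of the 7, KRT8, fell (by 0.37 on the log2 scale, adjusted p = 0.0359 in limma), none rose, and the median was -0.33. Of all features, 2.93% passed as higher and 5.74% as lower in this effect. The summed intensity of the 14 macrophage markers measured was 6378 to 6864 in NPM and 5409 to 6024 in NPC arrays, and 6810 to 7110 in HPM and 4654 to 4873 in HPC arrays. These sums did not overlap between co-culture and cells alone at either oxygen level. They rest on the brighter markers, and over the 14 the median averaged co-culture effect was -0.29, with 6 above 0. The markers CD68 (0.56) and ADGRE1 (1.24) rose, and LYZ (-0.90) and LCP1 (-1.78) fell, in limma on the log2 scale. The 13 hypoxia-induced genes measured summed to 118095 to 128783 in HPM and 52228 to 56547 in NPM arrays, and to 104134 to 119464 in HPC and 54966 to 56732 in NPC arrays. Of the 14 macrophage markers, 7 (CD14, ITGAM, LYZ, C1QA, C1QB, LAPTM5 and LCP1) were among the dimmest 25% of features on every array, and CD68 was among the brightest 25% on every array. The part of macrophage RNA, and of the lower PANC-1 markers, in the results below was not tested. In RNA of a whole culture, a change in the share of cells that express a gene and a change in its RNA per cell cannot be told apart.

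Averaged over both oxygen levels, GBP2 and GBP3 rose with TAM co-culture, by 2.77-fold and 2.46-fold. GBP4 and GBP5 did not pass the test on average. No member, GBP2 and GBP3 included, passed for co-culture at either oxygen level alone, although the NPM and NPC intensities of each did not overlap. The test of whether the co-culture difference changed with oxygen passed for no member. In co-cultured cells GBP3 also fell with hypoxia, and the other members did not pass. The threshold was an adjusted p (Benjamini-Hochberg, over all 34487 features) under 0.05 in limma.

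GBP2, a prenylated member that joins the coat on bacteria, had intensities of 931, 798 and 616 on the 3 NPM arrays, against 229, 345 and 282 on the NPC arrays. Under hypoxia it had 1168, 439 and 418 on the HPM arrays, against 288, 216 and 156 on the HPC arrays. Every co-culture array lay above every array of cells alone at the same oxygen level, and the first HPM array stood far above the other two of its group. On the log2 scale the levels were 9.59 ± 0.30 in NPM, 8.14 ± 0.29 in NPC, 9.23 ± 0.84 in HPM and 7.73 ± 0.44 in HPC (mean ± SD, n = 3 each). In this order of the 4 groups, NPM, HPM, NPC and HPC from the highest, the neighbours NPM and HPM overlapped, as did NPC and HPC, while HPM lay wholly above NPC.

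GBP3, which takes part in the activation of CASP4, had 859.6, 652 and 627 on the NPM arrays, against 304, 335 and 182 on the NPC arrays. Its HPM arrays gave 368, 259.8 and 246, against 196, 118 and 86.6 on the HPC arrays. The co-culture groups again did not overlap with cells alone, and the HPM arrays were all below the NPM arrays. The lowest of these values was dim, as the third HPC array exceeded only 5.65% of the features on that array. The log2 levels were 9.46 ± 0.25 in NPM, 8.05 ± 0.48 in NPC, 8.16 ± 0.32 in HPM and 6.98 ± 0.59 in HPC (n = 3 each). From the highest, the order was NPM, HPM, NPC and HPC, in which HPM and NPC overlapped, as did NPC and HPC.

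GBP4, which has no lipid anchor, had 1434, 936 and 839.9 on the NPM arrays, against 641, 469 and 592 on the NPC arrays. Under hypoxia the HPM arrays gave 879, 549 and 363, against 722, 359 and 393 on the HPC arrays. The normoxic groups were apart and the hypoxic groups overlapped. The log2 levels were 10.02 ± 0.41 in NPM, 9.14 ± 0.23 in NPC, 9.13 ± 0.64 in HPM and 8.87 ± 0.55 in HPC (n = 3 each), and NPC, HPM and HPC could not be ordered beyond their spread.

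GBP5, a prenylated member of the Golgi that lowers the activity of the protease furin, had 794, 660.1 and 375 on the NPM arrays, against 308, 285 and 211 on the NPC arrays. The HPM arrays gave 622, 287 and 197, against 224, 419 and 173 on the HPC arrays. As with GBP4, the groups were apart under normoxia and overlapped under hypoxia, where 1 of the 3 HPC arrays was above 2 of the 3 HPM arrays. The log2 levels were 9.18 ± 0.56 in NPM, 8.05 ± 0.29 in NPC, 8.36 ± 0.84 in HPM and 7.98 ± 0.66 in HPC (n = 3 each). All neighbours in the order NPM, HPM, NPC and HPC overlapped.

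**Figure D2:**
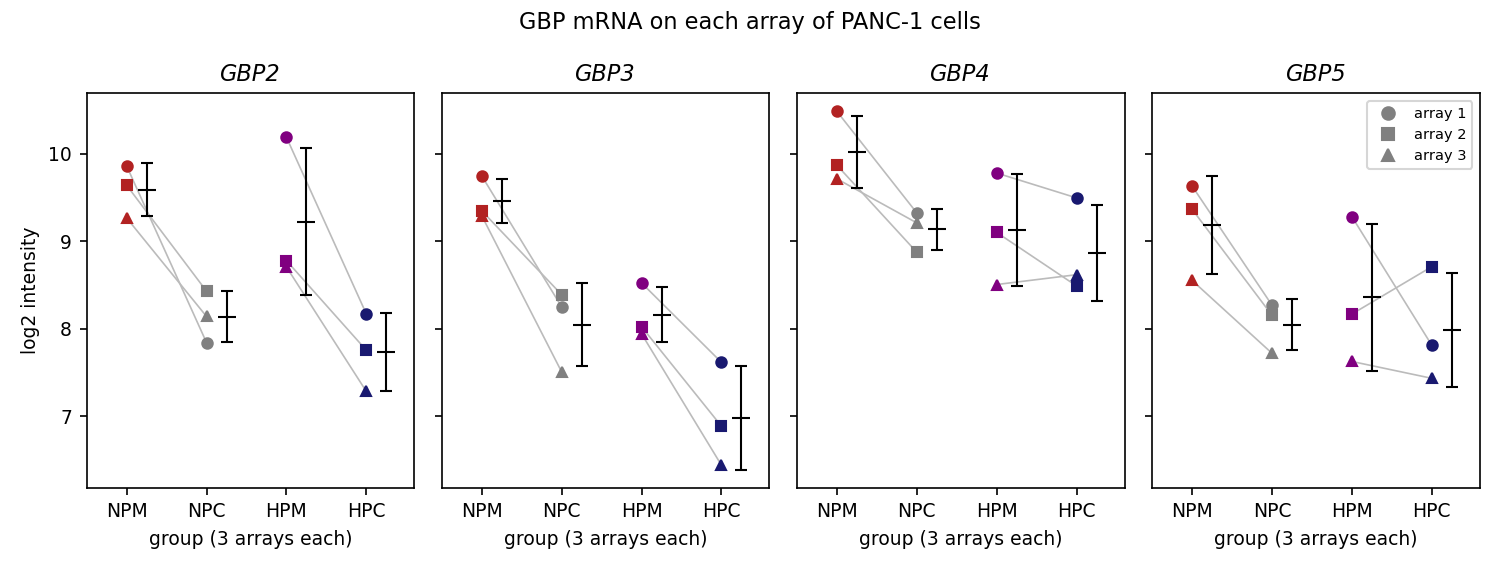
Log2 intensity of GBP2, GBP3, GBP4 and GBP5 on each of the 12 arrays, with 1 panel a gene. Symbols are the arrays by their number, grey lines join same-numbered arrays of an oxygen level, and black bars are the mean ± SD of 3 arrays. All 4 genes show NPM arrays above NPC arrays, whereas under hypoxia GBP4 and GBP5 overlap, and the first HPM array is the highest of its group in each panel.

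Under normoxia, co-culture was compared with cells alone to ask which mRNAs of the cancer cells differ when TAMs share the medium. All 4 GBP features were higher in NPM than in NPC on all 3 arrays, with no overlap between the groups, which held for 8.84% of all features. The log2 difference was 1.45 (SE 0.23) for GBP2, 1.42 (SE 0.28) for GBP3, 0.89 (SE 0.25) for GBP4 and 1.14 (SE 0.31) for GBP5. These correspond to 2.74-fold, 2.67-fold, 1.85-fold and 2.20-fold. None of the 4 passed in limma, with adjusted p of 0.102, 0.126, 0.212 and 0.205 for GBP2 to GBP5, while 0.00870% of all features passed as higher. At an unadjusted p under 0.05, 4 of 4 were higher, against 5.65% of all features. The exact two-sided permutation p was 0.1 for each, which is the smallest that 3 arrays against 3 can give. The median log2 difference of the 4 was 1.28, and that of all features was -0.01.

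The call under normoxia differed between fits. Same-numbered arrays deviated together within an oxygen level. In a limma fit over all 12 arrays with the replicate block, GBP2 and GBP3 passed with adjusted p of 0.0332 and 0.0236. In that fit 491 of all 34487 features passed as higher, against 3 in the main fit. With the block over the 6 normoxic arrays alone, no GBP feature passed.

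Under hypoxia, GBP2 and GBP3 had log2 differences of 1.49 (SE 0.44) and 1.18 (SE 0.33) between HPM and HPC, or 2.81-fold and 2.27-fold. GBP4 and GBP5 differed by 0.26 (SE 0.40) and 0.37 (SE 0.50). GBP2 and GBP3 were 2 of 4 features with no overlap between the groups, against 11.3% of all features. None of the 4 passed in limma, with adjusted p of 0.135, 0.118, 0.768 and 0.731, and 0.348% of all features passed as higher. At an unadjusted p under 0.05, 2 of 4 were higher, against 8.00% of all features. The exact permutation p was 0.1 for GBP2 and GBP3 and 0.6 for GBP4 and GBP5. With the replicate block over all 12 arrays, GBP2 and GBP3 passed in limma, both at an adjusted p of 0.0221. In that fit 1031 of all 34487 features passed as higher. With the block over the 6 hypoxic arrays alone neither GBP2 nor GBP3 passed, both at an adjusted p of 0.0627.

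These values moved with the first HPM array. Without it, the log2 difference was 1.01 for GBP2, and it was -0.064 for GBP4 and -0.088 for GBP5, on the other side of 0. On this array alone, the difference from the same-numbered HPC array was 2.02 for GBP2 and 1.47 for GBP5, and the other two pairs gave 1.03 and 1.42 for GBP2 and -0.54 and 0.19 for GBP5.

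Whether the co-culture difference changed with oxygen was tested as the interaction over all 12 arrays. The interaction (the HPM minus HPC difference less the NPM minus NPC difference) was 0.04 for GBP2, with a 95% confidence interval of -1.15 to 1.23. It was -0.23 for GBP3 (-1.24 to 0.77), -0.63 for GBP4 (-1.74 to 0.49) and -0.76 for GBP5 (-2.17 to 0.64). None passed in limma, with adjusted p of 0.993, 0.925, 0.733 and 0.747, and the smallest unadjusted p was 0.240. Of all features, 0.174% passed as higher and 0.278% as lower. The intervals are wide, so that the smaller hypoxic differences of GBP4 and GBP5 could not be told apart from their normoxic ones.

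Averaged over both oxygen levels, GBP2 rose by 1.47 (SE 0.27, adjusted p = 0.00848 in limma) and GBP3 by 1.30 (SE 0.23, adjusted p = 0.00685) on the log2 scale. GBP4 had 0.57 (SE 0.25, adjusted p = 0.197) and GBP5 had 0.76 (SE 0.32, adjusted p = 0.181), and neither passed. Thus 2 of 4 passed as higher, against 2.93% of all features, and 5.74% of all features passed as lower. The median over the 4 was 1.03, against -0.01 over all features. An exact permutation test with arrays exchanged within each oxygen level, chosen after seeing the data, gave 0.005 for GBP2 and GBP3, the smallest it can give, and 0.07 for GBP4 and GBP5. The rise of GBP2 and of GBP3 passed without any 1 of the 12 arrays, with adjusted p up to 0.0253 and 0.0216. It did not pass without the 4 arrays numbered 3, where limma gave 0.0632 and 0.0574. With the replicate block, GBP4 also passed (adjusted p = 0.0377 in limma), in a fit where 1718 of all 34487 features passed as higher.

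**Figure D3:**
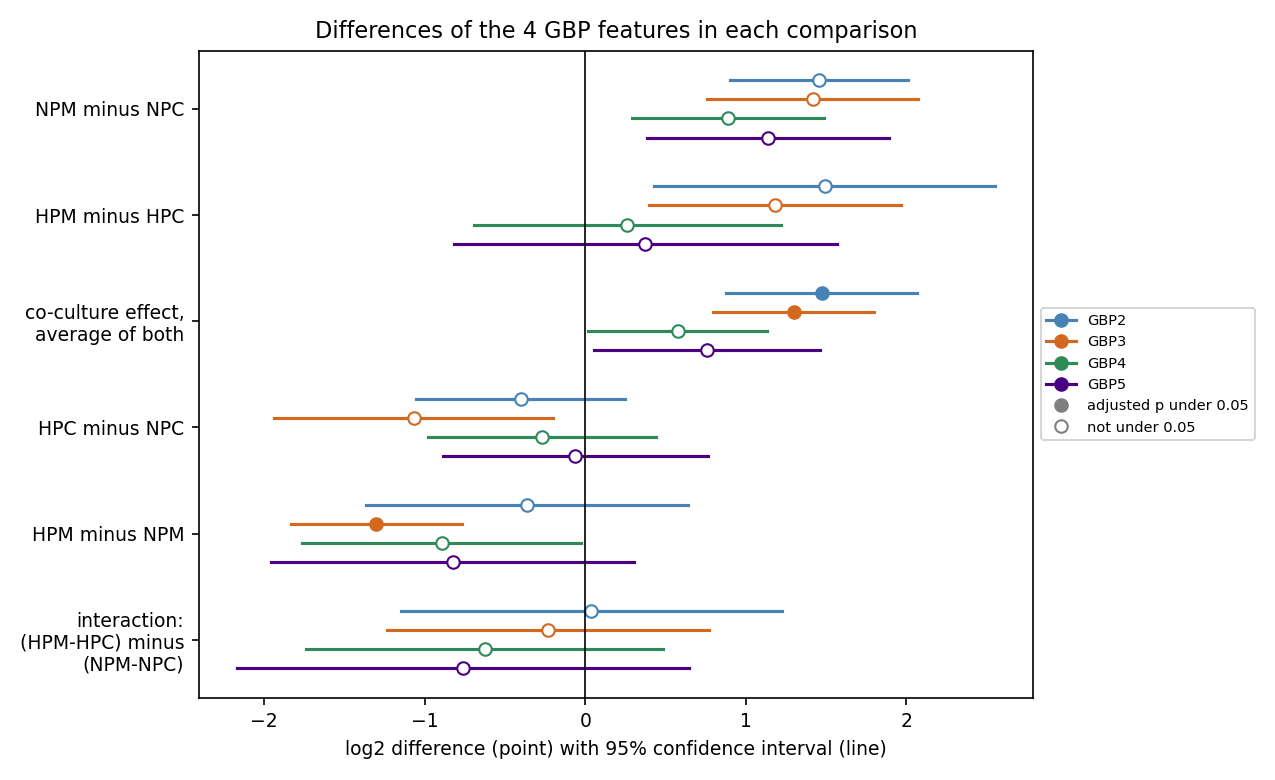
Log2 differences of GBP2, GBP3, GBP4 and GBP5 in the 6 comparisons, with 95% confidence intervals from limma. Filled points passed at an adjusted p under 0.05. These are GBP2 and GBP3 in the averaged co-culture effect and GBP3 in HPM minus NPM, and all interaction intervals include 0.

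Hypoxia was compared with normoxia in each culture. In cells alone, no GBP feature passed in limma between HPC and NPC, where 0.0174% of all features passed as lower. The log2 difference was -1.07 for GBP3 (SE 0.36, adjusted p = 0.205), -0.40 for GBP2, -0.27 for GBP4 and -0.06 for GBP5, with adjusted p of 0.493, 0.685 and 0.947 for GBP2, GBP4 and GBP5. The 2 groups overlapped for each of the 4 features. At an unadjusted p under 0.05, 1 of 4 (GBP3) was lower, against 8.90% of all features.

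In co-cultured cells, GBP3 fell by 1.30 (SE 0.22, adjusted p = 0.0211 in limma) in HPM against NPM, to 0.41 of its normoxic level. It was 1 of 4 that passed, against 5.79% of all features, and 1 of 4 whose groups did not overlap, against 18.2%. The remaining members gave -0.36 for GBP2, -0.89 for GBP4 and -0.83 for GBP5, with adjusted p of 0.633, 0.169 and 0.315. The call of GBP3 was lost, with adjusted p from 0.0646 to 0.0751, when any 1 of NPM arrays 1 and 2 or HPM arrays 2 and 3 was left out. The NPM and HPM arrays of this comparison also enter the co-culture comparisons.

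GBP7, a family member outside the 5, was measured as well and had 1217, 1276 and 351 on the NPM arrays, against 531, 399 and 662 on the NPC arrays. The third NPM array was below all NPC arrays. Its averaged co-culture effect was 0.42 (SE 0.32, adjusted p = 0.479 in limma) on the log2 scale.

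Among other large GTPases, MX1, an antiviral dynamin-like protein, rose by 0.92 (SE 0.22, adjusted p = 0.0268 in limma) in the averaged co-culture effect. MX1 had log2 levels of 10.44 ± 0.15 in NPM and 9.13 ± 0.41 in NPC, and of 8.67 ± 0.62 in HPM and 8.15 ± 0.29 in HPC arrays (n = 3 each). Its relative MX2 had 0.26 (adjusted p = 0.158). The atlastins, GTPases that fuse membranes of the endoplasmic reticulum, gave 0.62 for ATL1, -0.04 for ATL2 and 0.22 for ATL3, none passing. Thus 1 of the 5 measured of 7 listed rose and none fell, while 2.93% of all features rose.

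Of 10 interferon genes listed, 3 had a feature, and IFNG, the gene of interferon-gamma, was not among them. The averaged co-culture effect was 0.20 for IFNA2, 0.25 for IFNL2 and -0.46 for IFNL3, and none passed in limma. Markers of T and NK cells, which secrete interferon-gamma, were measured for 3 of 10 genes, and their summed intensity was 258 to 647 in NPM and 268 to 634 in NPC arrays, with overlap.

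The receptor and signalling genes upstream of the family rose in part. Of 21 measured of 23 listed, 8 rose with co-culture on average, against 2.93% of all features, none fell, and the median log2 difference was 0.35. IRF1 rose by 1.01 (SE 0.11, adjusted p = 0.000932 in limma). Genes that also passed included IFNGR2 (0.54), STAT2 (0.53), IRF2 (0.67), IL10RB (0.49), IFNAR2 (0.44) and BATF2 (0.70).

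Of the signalling genes that had no call, IFNGR1 gave 0.36 (adjusted p = 0.081 in limma), JAK1 0.35, JAK2 0.01 and IRF9 0.25. TYK2, the kinase of the type I receptor, gave 0.35, IRF7 0.41, STAT3 0.20 and IFNAR1 -0.09. The negative regulators gave 0.15 for SOCS1, -0.07 for SOCS3, 0.25 for PIAS1, -0.31 for PTPN11 and -0.03 for PTPN2.

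IRF1 was the 1 signalling gene whose co-culture difference changed with oxygen in the test. Its log2 levels were 13.67 ± 0.14 in HPM and 12.01 ± 0.10 in HPC, and 12.68 ± 0.20 in NPM and 12.32 ± 0.17 in NPC arrays (n = 3 each). The interaction of IRF1 was 1.30 (SE 0.22, adjusted p = 0.0342 in limma), with the larger difference under hypoxia. For GBP2 to GBP5 the interaction did not pass and was between -0.76 and 0.04.

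Among other genes induced by interferon-gamma, 31 of 35 listed were measured, of which 14 rose with co-culture on average and none fell. Of all features, 2.93% rose, and the median of the 31 was 0.55. Those with the smallest p were APOL1, a lipid-binding protein that lyses trypanosomes (0.92, SE 0.09), PSMB9, an immunoproteasome subunit (0.76, SE 0.08), PARP14, an ADP-ribosyltransferase (0.80, SE 0.10), and TAP1, which carries peptides for MHC class I (1.01, SE 0.12). Their adjusted p in limma was 0.000546, 0.000948, 0.00132 and 0.00136. The list was not uniform, with 28 of the 31 above 0 in the averaged effect. At an unadjusted p under 0.05 in limma, 24 were higher and 1 was lower, against 9.12% and 14.5% of all features. In HPM against NPM, 9 of the 31 fell, against 5.79% of all features, none rose, and the median was -0.47. The median co-culture difference of the 31 was 0.69 between NPM and NPC and 0.40 between HPM and HPC. The interaction passed as lower for 1 of the 31, against 0.278% of all features, and as higher for none. The median interaction of the 31 was -0.34.

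Of the genes induced by type I interferon, 17 of 24 listed were measured. With co-culture 1 rose, IFIH1, a sensor of double-stranded RNA (0.90, SE 0.21, adjusted p = 0.0252 in limma), none fell, and the median was 0.19. This was 1 of 17, against 2.93% of all features. MX1 and MX2 were counted above with the related GTPases and not here, so that the count depends on how genes were listed. OAS3 (0.56), USP18 (0.63) and RIGI (0.29) did not pass. In HPM against NPM, 7 of the 17 fell, against 5.79% of all features, and none rose, with a median of -0.93. No test of the difference between these 2 lists was made.

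GBP genes also respond to inflammatory cytokines that act through NF-kB. Of 19 measured of 20 NF-kB targets, 7 rose and 2 fell, with a median of 0.42. Of all features, 2.93% rose and 5.74% fell. NFKBIA and NFKB2, which restrain or form NF-kB, rose by 0.75 (SE 0.13) and 0.74 (SE 0.14), and VCAM1, an adhesion molecule, rose by 1.48 (SE 0.28). The VCAM1 difference was 0.14 (adjusted p = 0.909 in limma) between HPM and HPC and 2.82 (adjusted p = 0.0145) between NPM and NPC, and its interaction of -2.68 did not pass (adjusted p = 0.0775). IL1B, the cytokine interleukin-1 beta, fell by 2.33 (SE 0.27). The adjusted p in limma was 0.00561, 0.00938, 0.0105 and 0.00109 for NFKBIA, NFKB2, VCAM1 and IL1B in the averaged effect. VCAM1 was the gene the study selected on these arrays, so that its direction under normoxia is no independent evidence.

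The partners with which GBP proteins act in cell death were measured for 11 of 12 genes. Among the 11, none fell and 3 rose, against 2.93% of all features (median 0.24). These were the caspases CASP4 (0.67, SE 0.11) and CASP5 (0.57, SE 0.13), which bind bacterial lipopolysaccharide, and GSDMD (0.43, SE 0.12), the pore-forming protein that they cut. Their adjusted p in limma was 0.0046, 0.0208 and 0.0458. CASP8 gave 0.22 and did not pass.

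Of a list of genes of prenylation and CaaX processing, not limited to enzymes that act on GBP2 and GBP5, 11 of 12 were measured. None passed as higher and 1 of the 11 fell, against 5.74% of all features, with a median of -0.04. The gene that fell was ZMPSTE24, a CaaX protease (-0.53, SE 0.14, adjusted p = 0.0434 in limma). GGPS1, which makes the geranylgeranyl donor, gave -0.46, FDPS, which makes farnesyl diphosphate, gave -0.46, and RABGGTA gave 0.26, none passing.

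**Figure D4:**
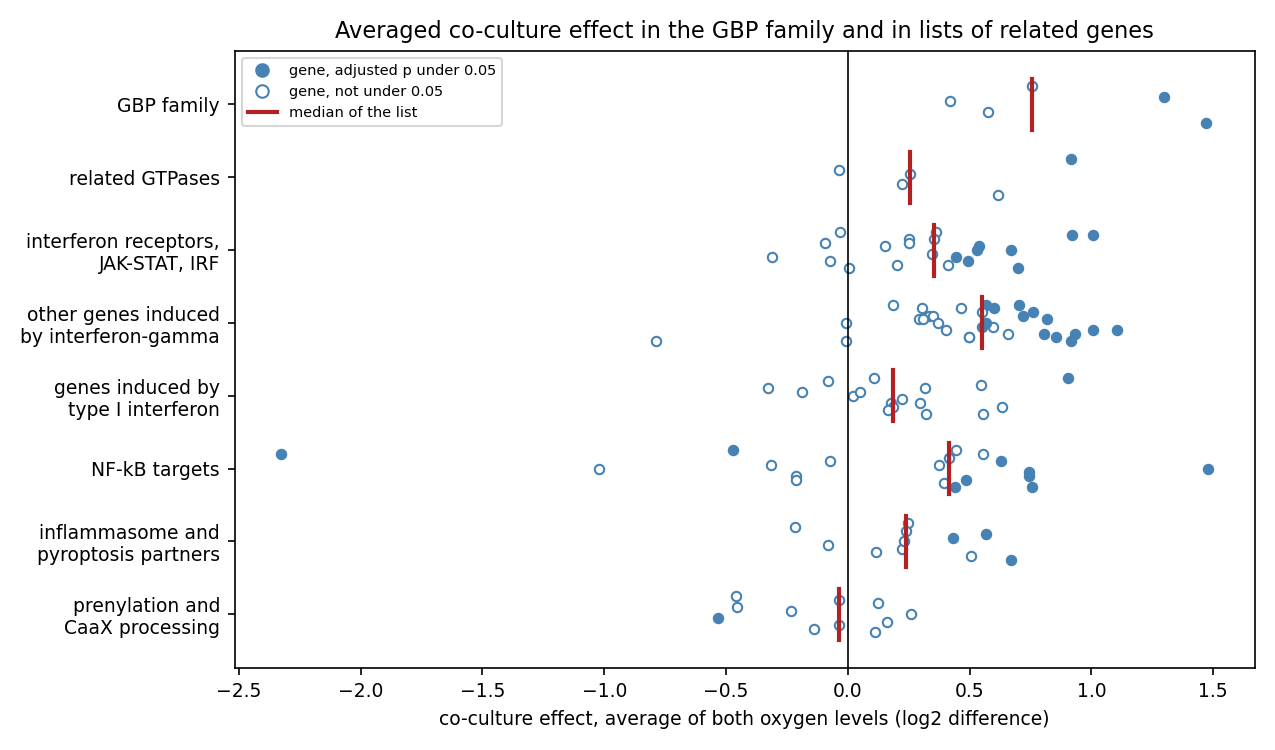
Co-culture effect averaged over both oxygen levels, as a log2 difference, for each measured gene of the GBP family (GBP2 to GBP5 and GBP7) and of 7 lists of related genes. Each point is a gene, filled where it passed at an adjusted p under 0.05, vertical scatter within a row has no meaning, and red bars are medians. The family has the highest median, 0.76, and prenylation and CaaX processing has the lowest, -0.04.

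The 4 features varied together over the 12 arrays, with Pearson r from 0.73 (GBP3 with GBP5) to 0.84 (GBP2 with GBP3) on the log2 scale. The 12 arrays form 4 groups, so that r holds group differences as well as deviations within groups, and it is given as a description. GBP4 was highest on the first NPM array among all 12, and so were GBP3 and GBP5, whereas GBP2 was highest on the first HPM array. The lowest was the third HPC array for GBP2, GBP3 and GBP5 and the second HPC array for GBP4.

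Among 14674 other features with a gene name, those most like GBP2 over the 12 arrays were BCL2A1 (0.95), SP110 (0.95), TBC1D2B (0.92), MARCKSL1 (0.92) and THSD4 (0.92). The closest to GBP3 included ARID1B (0.95), VPS13C (0.94), MEFV (0.94) and CEACAM3 (0.94). GBP4 was most like TPM1 (0.88), CYB5R2 (0.86), IRGQ (0.86), AGBL2 (0.86) and ZNFX1 (0.85), and GBP5 was most like ROBO1 (0.94), TRIM22 (0.88), SEPTIN11 (0.87), FOXL1 (0.87) and RNF39 (0.87). No GBP feature was among the 5 closest of another. The nearest was GBP3, at rank 16 of the features most like GBP4 (0.82), and GBP3 stood at rank 46 for GBP2.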

How the data were processed

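The submitters and the Supplementary Methods describe NimbleGen labelling, scanning with GenePix Pro 6.0, and quantile normalization and RMA in NimbleScan 2.5, followed by GeneSpring GX 11.5.1. What the authors deposited are linear-scale intensities. The probe positions within each transcript and any background measure were not used here. The methods name a NimbleGen array, whereas the series description names an Arraystar one, and the number of arrays limits the precision.

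The log2 of the intensities was tested feature by feature with limma 3.58.1 (lmFit and eBayes, R 4.3.3), two-sided and without a filter. Two-group comparisons used their 6 arrays, and the interaction and the averaged effect used all 12. Of the named features, 14133 were named by the platform table and 542 by RefSeq accession. A list gene with several features entered with the brightest. Named in the text were all GBP features, the related GTPases, interferon ligands and signalling genes measured, and of each other list the 4 genes with the smallest p in the averaged effect. A few genes that this rule takes are not reported here. The members and lists were chosen with earlier results of these data known. The study had singled out GBP2 and GBP4 on the NPM and NPC arrays, so that their direction there is no independent evidence; whether it used the same features is not known here. VCAM1, IL1B, LCP1 and ADGRE1 were also shown by the study on those arrays.

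Same-numbered arrays deviated together in the co-culture comparisons, with residual correlations of 0.34, 0.28 and 0.52 (NPM with NPC) and 0.50, 0.27 and 0.54 (HPM with HPC), and the numbers come from the sample titles. Alternatives were repeated quantile normalization, centring on the median, a 25th percentile filter, one fit of 12 arrays, the replicate block, trend and robust eBayes, the methods' t-test, averaging the features of a gene, leaving out each array, and leaving out the arrays numbered 3. The fit was tested on simulated data. Motifs were searched with Python 3.11.15 and figures drawn with matplotlib 3.10.9.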

Additional observations from a re-analysis of the deposited data

Results flagged for a closer look

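No GBP feature had an interaction that passed in limma. Among the other genes named, 3 had an interaction that passed in limma. IRF1 had a co-culture difference larger under hypoxia by 1.30 on the log2 scale (adjusted p = 0.0342). HILPDA, a lipid droplet gene induced by hypoxia, differed by 2.28 (adjusted p = 0.00266), being 0.88 between HPM and HPC and -1.39 between NPM and NPC. LCP1, an actin-bundling protein of leukocytes, differed by 2.92 (adjusted p = 0.0146), with -0.32 between HPM and HPC and -3.24 between NPM and NPC, and it was among the dimmest 25% of features on every array.

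For 3 further genes every same-numbered pair of arrays moved one way under hypoxia and the opposite way under normoxia, and the interaction did not pass in limma. GGPS1 differed by -1.39 (adjusted p = 0.0735), IFNL2 by 1.98 (adjusted p = 0.210) and SOCS1 by 1.67 (adjusted p = 0.227).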

How the results depend on the processing

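Of 412 refits of single GBP values, 379 kept their direction and their side of the threshold. Most of the 379 had no call in the main fit and stayed without one, so that the count says little of the calls. The GBP3 call between HPM and NPM was kept in 10 refits and lost in 6. The averaged calls of GBP2 and GBP3 were each kept in 19 and lost in 1. Between NPM and NPC, where no GBP feature was called, 1 was called with the 25th percentile filter (GBP2, adjusted p = 0.0398 in limma), 2 with trend and robust eBayes, 1 in one fit of 12 arrays (GBP3), 3 by the methods' t-test at a fold above 2 and an unadjusted p under 0.05 (0 after adjustment) and 2 with the 12-array replicate block. Between HPM and HPC, where none was called, 1 was called in one fit of 12 arrays, 1 by the methods' t-test at a fold above 2 and an unadjusted p under 0.05 (0 after adjustment) and 2 with the 12-array replicate block. Between HPC and NPC, 0 were called and 1 with the 12-array replicate block (GBP3, adjusted p = 0.0492 in limma). Residual correlations of same-numbered arrays across oxygen levels were uneven. They were 0.24, 0.03 and 0.38 between HPC and NPC, and 0.38, 0.01 and 0.20 between HPM and NPM. Whether the numbers pair the arrays across oxygen levels is not known here. Between HPM and NPM, where GBP3 was called, 0 were called without the arrays numbered 3 and by the methods' t-test after adjustment, 2 with the 12-array replicate block, and 0 to 1 without 1 array. In the averaged effect, 0 of the 2 calls were left without the arrays numbered 3. Over all features, the number called between NPM and NPC was 8, 335 with the filter, 940 with trend and robust eBayes, 872 in one fit of 12 arrays and 1 with the 6-array replicate block, and that between HPM and HPC was 353, 1803 with the filter, 2239 with trend and robust eBayes, 1885 in one fit of 12 arrays, 2892 with the 12-array replicate block, 231 by the methods' t-test after adjustment, and 0 with the 6-array replicate block. With the 12-array replicate block, 1147 features were called between NPM and NPC, 550 between HPC and NPC and 5214 between HPM and NPM. In the averaged effect that block called 4536, against 2990 in the main fit. The methods' t-test rule of a fold above 2 and an unadjusted p under 0.05 held for 498 features between NPM and NPC. Between HPM and HPC it held for 755. The cause of these ranges was not tested. Without the arrays numbered 3, GBP5 had 0.049 between HPC and NPC and GBP2 had an interaction of -0.093. Without 1 array, the log2 difference between HPM and HPC was -0.064 to 0.58 for GBP4 and -0.088 to 0.74 for GBP5, that of GBP5 between HPC and NPC was -0.43 to 0.21, and the interaction was -0.45 to 0.30 for GBP2 and -0.50 to 0.086 for GBP3. With 3 arrays a group, 1 feature a gene and no measure of detection, it is not known here whether low values, such as those of GBP3 in HPC arrays, exceed background.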
